A study of Mus musculus with 5 samples.

Results

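Collagen-high activated hepatic stellate cells (aHSC) were examined in the VitA+Col1a1+ library of DEN+WAD liver, where 539 of 10481 cell barcodes met the definition used here, out of 24007 barcodes in the 5 libraries of the series. A cell was eligible with at least 5000 UMIs (unique molecular identifiers, each counting 1 captured RNA molecule), at least 1 UMI of the stellate cell gene Lrat, and 0 UMIs of Pecam1 and Ptprc, which mark endothelial and blood cells. The 9912 eligible cells were scored by the summed UMIs of Col1a1, Timp1, Tnc and S100a6 per 10000 UMIs of the cell, and the top 6% of them were taken, 595 cells. Of these, 56 cells that held UMIs of both Mgp and Dpt, genes of portal fibroblasts, were set aside, which left the 539 collagen-high cells. They were compared with the 4956 eligible cells of lowest score, 50% of the total, called low-score cells below. The measured values chose both sets, so that every difference between them is given as a description without a test.

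The mice were males of the Rosa26mTmG;Col1a1-Cre genotype on the C57BL/6J background, in which a cell turns green for good once the Col1a1 promoter has driven Cre, so a Col1a1+ cell by sorting is one with past promoter activity. DEN+WAD mice received the liver carcinogen diethyl nitrosamine (DEN) at 10 mg/kg when 2 weeks old, and a liquid Western alcohol diet (WAD) with 3.5% ethanol by volume was given for 5 months beginning at 6 weeks. Chow mice received saline and chow over the same period. Perfused livers were sorted by GFP and by the autofluorescence of vitamin A (VitA) into VitA+Col1a1+ and VitA-Col1a1+ fractions of each treatment and a VitA-Col1a1- fraction of DEN+WAD liver, each given as 1 library. How many mice each library holds is not given in the sources used here, cells of 1 library are not replicates, and all intervals below are 95% intervals that cover counting error only.

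HSC are the pericytes of the liver sinusoid, and in the quiescent state they store vitamin A as retinyl esters made by the enzyme LRAT. After injury they become activated: they lose vitamin A, assemble a contractile cytoskeleton and secrete fibrillar collagens, which is the main route to liver fibrosis.

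The libraries held 259 to 10481 barcodes with a median of 9105.5 to 24077 UMIs per barcode. Between 0 and 21 barcodes were shared by any 2 libraries, 48 in all, and 2 barcodes of collagen-high cells occurred in another library. The library labelled VitA-Col1a1- held Col1a1 RNA at 1907 CPM (UMIs of a gene scaled to 1000000 UMIs) in its eligible cells, above the 303 CPM of VitA+Col1a1+ DEN+WAD, so that its label and its RNA do not match. The collagen-high cells were deeper, with medians of 19607 UMIs and 4551 genes, than low-score cells, with 13042 UMIs and 3574 genes. Mitochondrial transcripts made up 2.74% and 2.75% of UMIs in the 2 sets, and ribosomal protein transcripts 12.9% and 9.19%. These differences moved with every comparison below, and the part of depth was measured for the gene counts by matching low-score cells in UMIs per cell, as given with those counts.

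The score ran continuously from 0 to 230.27 with a median of 0.824, and the cut at 10.94 fell on a smooth part of the curve. The 50 cells just inside it (scores 10.94 to 11.93) held 748 CPM of Col1a1 and 2184 CPM of Col3a1, and the 50 cells just outside (10.34 to 10.91) held 762 and 2436 CPM. Acta2 stood at 171 CPM inside and 95.4 CPM outside, and Lrat at 1242 and 1348 CPM. The collagen-high cells are therefore the upper end of a range of scores, not a set apart from the rest.

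**Figure D1:**
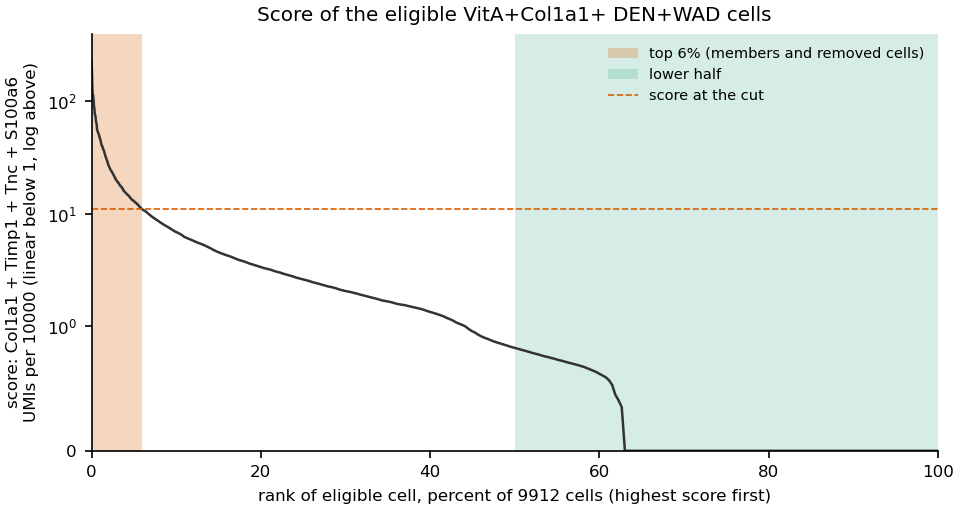
Score of each eligible VitA+Col1a1+ DEN+WAD cell (UMIs of Col1a1, Timp1, Tnc and S100a6 per 10000 UMIs, linear below 1 and logarithmic above) against its rank in percent of 9912 cells. The orange band is the top 6%, the green band is the low-score cells, and the curve crosses the dashed cut at 10.94 without a step.

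Col1a1 (chromosome 11, 94936224 to 94953042, GRCm38) encodes a chain of type I collagen and stood at 1833 CPM in collagen-high cells against 12.4 CPM in low-score cells. Timp1 (chromosome X, 20870166 to 20874735), an inhibitor of matrix metalloproteinases, stood at 635 against 4.05 CPM. Tnc (chromosome 4, 63959785 to 64047015), the injury-associated matrix protein tenascin C, stood at 172 against 2.47 CPM, and S100a6 (chromosome 3, 90612882 to 90624181), a calcium-binding protein, at 417 against 0.71 CPM. These 4 levels were fixed by the choice of cells, and so were their ratios. When the UMIs of each cell were split at random into 2 parts, with cells chosen on 1 part and measured on the other, the log2 ratios were 5.49 for Col1a1, 6.04 for Timp1, 4.73 for Tnc and 7.49 for S100a6, each below the 7.21, 7.29, 6.12 and 9.20 measured on all UMIs.

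The 4 score genes did not mark the same cells. Col1a1 gave the most score UMIs in 399 collagen-high cells (74.0%), Timp1 in 92, S100a6 in 38 and Tnc in 10. All 4 genes were found in 192 cells (35.6%), 3 in 212, 2 in 112 and 1 in 23. Per 10000 UMIs, Col1a1 ran from 0 to 183.59 over the cells with a median of 11.8, whereas S100a6 ran from 0 to 81.7 with a median of 1.23 and Tnc from 0 to 23.3 with a median of 0.503. After each cell was thinned to 5000 UMIs, 96.3% of collagen-high cells held Col1a1, 59.4% Timp1, 48.8% S100a6 and 31.4% Tnc. In 135 cells of the same library with Ptprc or Pecam1 and no Lrat, a measure of free RNA in the droplets (median 8880 UMIs), the thinned shares were 3.70%, 2.22%, 1.48% and 0.741%. The low-score cells, with 5.39%, 1.78%, 0.262% and 0.948%, were near that background by the definition of their score.

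Promoter windows of 2 score genes and of Col1a2, the partner chain of type I collagen, are shown because these genes lead the description below. Each is the 250 bases before the RefSeq start on the + strand of GRCm38.p6, and capitals mark the CCAAT box, a common promoter element read on either strand as CCAAT or ATTGG. The windows are chrX:20869916-20870165 for Timp1, chr3:90612644-90612893 for S100a6 and chr6:4505368-4505617 for Col1a2.
Timp1: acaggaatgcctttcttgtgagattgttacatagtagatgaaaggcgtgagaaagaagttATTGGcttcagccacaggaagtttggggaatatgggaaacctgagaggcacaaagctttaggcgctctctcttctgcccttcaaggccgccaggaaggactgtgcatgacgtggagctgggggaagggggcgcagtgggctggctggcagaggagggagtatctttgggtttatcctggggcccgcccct
S100a6: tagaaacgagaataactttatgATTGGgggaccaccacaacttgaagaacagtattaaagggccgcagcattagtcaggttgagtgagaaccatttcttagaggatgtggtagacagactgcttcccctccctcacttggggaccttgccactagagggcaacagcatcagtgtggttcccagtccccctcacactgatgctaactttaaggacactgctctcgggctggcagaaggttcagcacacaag
Col1a2: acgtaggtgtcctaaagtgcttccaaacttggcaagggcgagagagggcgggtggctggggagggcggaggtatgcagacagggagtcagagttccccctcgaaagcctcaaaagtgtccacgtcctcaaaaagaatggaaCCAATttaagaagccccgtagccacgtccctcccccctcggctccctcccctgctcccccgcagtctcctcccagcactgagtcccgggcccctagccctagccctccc
The box began 190, 228 and 109 bases before the start. It occurred in 34.7% of 297 windows of the genes at least 2-fold higher in collagen-high cells, in 34.5% of 9461 windows of all genes considered and in 33.9% of 32851 windows of all genes. The AP-1 element TGACTCA, read on either strand as TGACTCA or TGAGTCA, occurred in 6.397% (19 windows), 3.002% and 4.46% of the same 3 sets and in none of the 3 windows shown.

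Stellate markers were found throughout. Lrat was required of every cell and was found after thinning in 94.4% of collagen-high cells and 99.6% of low-score cells, at 1097 and 1595 CPM. Reln, an extracellular glycoprotein that marks HSC, stood at 810 and 1231 CPM. Of the 10 stellate markers listed for naming cells, all 10 were found, with a summed level of 12496 CPM against 26394 CPM, and 4 were at least 2-fold lower (Ecm1, Ngfr, Colec11 and Rgs5). Macrophage markers summed to 10.0 against 2.69 CPM (2 of 6 at 0 in collagen-high cells), lymphocyte markers to 0.258 against 0.281 CPM (3 of 5 at 0) and erythroid markers to 0 against 0.0296 CPM. Smooth muscle markers summed to 468.7 against 348.6 CPM, with Lmod1 (31.7 against 2.22 CPM) and Myh11 (47.1 against 21.9 CPM) at least 2-fold higher of 4 considered and none at 0. Of the 4 considered, 1 had a counting interval below a ratio of 1, and Myh11 came under 2-fold in 4 of 23 alternatives. Mesothelial markers summed to 22.5 against 0.858 CPM, nearly all of it Wt1, with 3 of 5 at 0. Cycling markers summed to 108.9 against 14.3 CPM, and the 4 considered, Top2a, Cenpf, Cdk1 and Mki67, were higher, with 95% of Top2a UMIs in 10 cells. With low-score cells matched in UMIs per cell, the log2 ratio went from 3.65 to 1.22 for Top2a and from 2.48 to 1.17 for Cdk1. That of Mki67 went from 1.79 to 0.806, under 2-fold. Endothelial markers summed to 13.9 against 35.1 CPM, nearly all of it Clec4g at 13.1 and 34.1 CPM. Hepatocyte markers summed to 12.1 against 197.6 CPM, and cholangiocyte markers to 8.76 against 7.97 CPM (4 of 6 at 0). Portal fibroblast markers summed to 919.7 against 168.1 CPM, carried by Gsn (607 against 146 CPM), Dpt (255 against 4.10 CPM) and Mfap4 (19.1 against 0.118 CPM), while Thy1 was found in 5 of the 539 cells and Fbln2 in 48. The matrix genes below are also given without cluster 9, which is led by fibroblast genes, with the clusters. Without that cluster the log2 ratio of Dpt was 5.21 (5.96 with it). Fibroblast genes were thus still higher, and their part in the matrix genes was not tested.

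Over 9336 genes with at least 5 CPM in eligible cells, 330 genes (3.53%) were at least 2-fold higher in collagen-high cells and 185 (1.98%) at least 2-fold lower. All 330 had a counting interval above a ratio of 1 (again 3.53%), as 326 did apart from the score genes, and 184 of the lower genes had an interval below it (1.97%), the exception being Mgp, which the definition of the cells fixed. The median log2 ratio over all genes was 0.042. With low-score cells matched in UMIs per cell, 316 genes were higher and 183 lower, 299 and 169 of them among those counted before. With cells chosen on 1 part of the UMIs and measured on the other, 342 were higher, 307 of them among the 330. Each gene list below is described by its count and median log2 ratio, to be read beside these shares over all genes.

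Collagen genes were mostly higher. Of 16 collagen genes considered other than Col1a1, 13 were at least 2-fold higher and none lower, with a median log2 ratio of 1.82. Col3a1, which encodes type III collagen, stood at 4383 CPM (interval 4345 to 4421) against 541 CPM, a ratio of 8.10. In single cells Col3a1 ran from 0.625 to 287 per 10000 UMIs with a median of 31.7 in collagen-high cells, and from 0 to 44.1 with a median of 4.65 in low-score cells. The ranges overlapped, but 525 of 539 collagen-high cells (97.4%) lay above the low-score median. Col1a2 stood at 2285 against 345 CPM, a ratio of 6.63, with medians of 14.8 and 3.07 per 10000 UMIs and 512 cells (94.99%) above the low-score median. The fibrillar collagen Col5a2 was 5.99-fold higher (292 against 48.7 CPM) and the microfibrillar Col6a3 4.81-fold higher (423 against 87.9 CPM). Col18a1 and Col8a1, of basement membrane and vessel wall, stood at 32.5 against 2.13 CPM and 63.9 against 6.26 CPM. The basement membrane chain Col4a1 was the smallest of the 13, at 1139 against 558 CPM, and it came under 2-fold in 10 of 23 alternatives. Col14a1, a fibril-associated collagen abundant in HSC, was at 1873 against 2363 CPM. Col12a1, also fibril-associated, stood at 27.0 against 0.281 CPM but did not reach 5 CPM over eligible cells and was not counted.

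**Figure D2:**
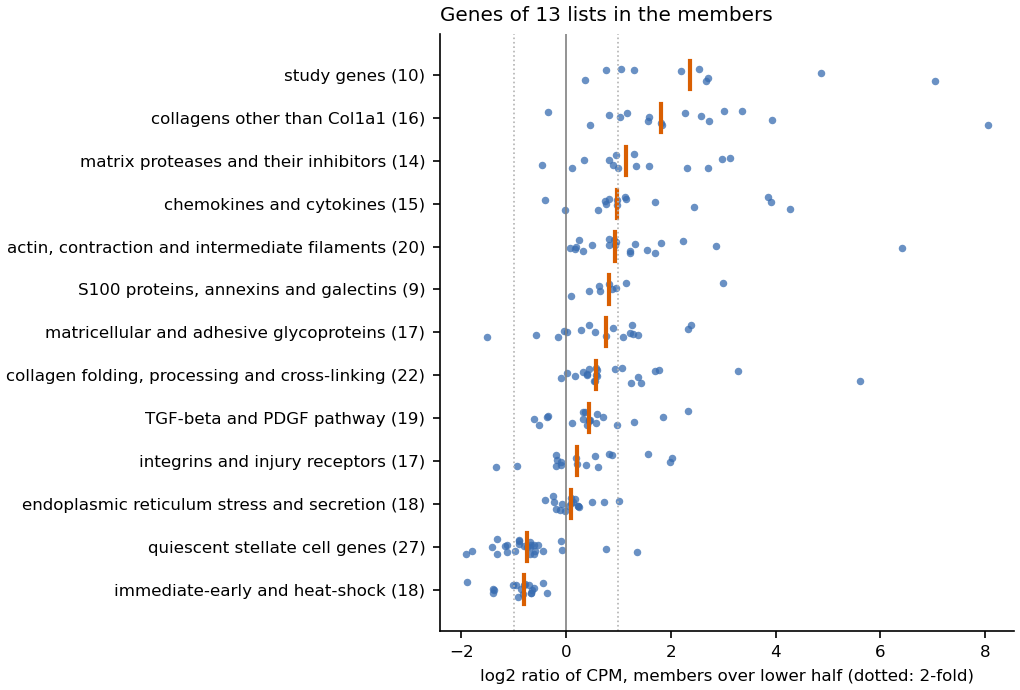
Log2 ratio of CPM in collagen-high over low-score cells (x axis) for each gene considered on 13 lists (rows, number of genes in parentheses), with orange bars at list medians and dotted lines at 2-fold. Collagens and the genes named by the study sit furthest to the right, and quiescent stellate cell genes and immediate-early and heat-shock genes are centred near -0.74 and -0.81.

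Cross-linking enzymes led the collagen-modifying genes. Of 22 genes for collagen folding, processing and cross-linking, 8 were at least 2-fold higher and none lower, with a median log2 ratio of 0.58. Lox, lysyl oxidase, which starts the cross-linking of collagen fibrils, stood at 46.4 CPM (interval 42.5 to 50.4) against 0.947 CPM, and its relatives Loxl1 and Loxl2 at 206 against 21.2 CPM and 287 against 83.9 CPM. Plod2, the hydroxylase that prepares lysines for cross-linking, was 3.23-fold higher, Fkbp10, its chaperone partner, 2.59-fold, and the procollagen N-proteinase Adamts2 2.69-fold. The collagen chaperone Serpinh1 was at 1622 against 1085 CPM, below 2-fold, and the prolyl hydroxylase subunit P4ha1 at 213 against 210 CPM. Among 18 genes of endoplasmic reticulum stress and secretion 1 was higher, Ssr4 at 391 against 195 CPM, which came under 2-fold in 13 of 23 alternatives, and none lower, with a median of 0.09. Hspa5, the chaperone BiP, stood at 1391 against 1831 CPM.

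Matricellular and adhesive glycoproteins were divided. Of 17 considered, 7 were higher and 1 lower, with a median log2 ratio of 0.76, and 4 were higher with cells with Mgp or Dpt removed. Thbs1, thrombospondin 1, an activator of latent TGF-beta, stood at 414 against 82.4 CPM, and Eln, elastin, at 70.3 against 13.5 CPM. Ctgf and Wisp1, of the CCN family of secreted regulators, were 2.43-fold and 2.58-fold higher, though Ctgf came under 2-fold without the fibroblast-gene cluster described below, and Fbn1, fibrillin of the microfibrils, 2.33-fold. Sparc was at 7591 against 4079 CPM and Postn at 745 against 506 CPM, both below 2-fold, and fibronectin Fn1 at 517 against 424 CPM. The small proteoglycans did not share a direction, with Lum at 1058 against 626 CPM, Bgn at 4922 against 5025 CPM and Dcn at 18730 against 27795 CPM. The lower gene was Spp1, osteopontin, at 2.23 against 6.34 CPM, where 10 low-score cells held 90.2% of its UMIs.

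Contractile and filament genes were also higher. Of the 4 smooth muscle markers considered above, 2 were at least 2-fold higher and 1 had an interval below a ratio of 1. The part of smooth muscle markers in the result was not tested. Of 20 genes of actin, contraction and intermediate filaments, 9 were higher and none lower, with a median log2 ratio of 0.94. Acta2, the smooth muscle actin used to define aHSC, stood at 762 CPM (interval 747 to 778) against 8.93 CPM. It was present in a minority of the cells: 45.3% of collagen-high cells held Acta2, 36.7% after thinning, against 1.69% of thinned low-score cells, and its values ran from 0 to 196.38 per 10000 UMIs with a median of 0. Tagln, which encodes the actin-binding protein transgelin, was more even at 2510 against 347 CPM, from 0 to 235 per 10000 UMIs with a median of 13.1 against 1.45, and 494 cells (91.7%) above the low-score median. Vim, vimentin, stood at 3102 against 662 CPM and was found in every collagen-high cell. Tpm2, Actn1 and Myl9, a tropomyosin, an actin cross-linker and a myosin light chain, were 3.51-fold, 3.24-fold and 2.93-fold higher. Desmin, Des, a classical HSC filament, was at 377 against 315 CPM and Actb at 5731 against 4595 CPM. Among 9 S100 proteins, annexins and galectins beside S100a6, 2 were higher, with a median of 0.82: Lgals1, galectin 1, at 1674 against 211 CPM, and S100a11 at 863 against 392 CPM.

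Of 14 matrix proteases and inhibitors, 7 were higher and none lower, with a median log2 ratio of 1.15. Plat, tissue plasminogen activator, stood at 182 against 23.2 CPM, and Serpine2, a serpin that inhibits plasminogen activation, at 62.8 against 7.17 CPM. The metalloproteinase Mmp2, which cleaves denatured and type IV collagen, was 2.47-fold higher (120 against 48.5 CPM) and Mmp23 6.56-fold (131 against 20.0 CPM). Mmp2 came under 2-fold in 3 of 23 alternatives, with a lowest log2 ratio of 0.271. Adamtsl2, a fibrillin-binding protein, stood at 304 against 61.3 CPM. Mmp14, the membrane activator of MMP2, was at 126 against 63.1 CPM and the inhibitor Timp2 at 743 against 382 CPM, just below 2-fold.

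Of 19 genes of the TGF-beta and PDGF pathway, 3 were higher, all ligands, and none lower, with a median log2 ratio of 0.43. Tgfb2 stood at 85.0 against 17.0 CPM, Tgfb3 at 19.9 against 5.55 CPM and Inhba, the activin A subunit, at 134 against 54.2 CPM, while Tgfb1 was at 125 against 116 CPM. The PDGF receptors Pdgfrb and Pdgfra were at 317 against 233 CPM and 140 against 180 CPM, and Bambi, a decoy receptor that restrains TGF-beta signalling in quiescent HSC, at 224 against 341 CPM. Of 17 integrins and injury receptors, 3 were higher and 1 lower, with a median of 0.21. The higher ones were Tnfrsf12a, the TWEAK receptor (90.1 against 22.2 CPM), the fibronectin receptor chain Itga5 (28.3 against 7.20 CPM) and Axl, the receptor tyrosine kinase for Gas6 (175 against 59.0 CPM). Itgb3 was the lower one, at 34.8 against 88.1 CPM.

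Genes of quiescent HSC were lower but present. Of 27 considered, 8 were at least 2-fold lower and 1 higher, with a median log2 ratio of -0.74. The collectins Colec10 and Colec11, lectins of innate immunity made by HSC, stood at 541 against 2033 CPM and 3120 against 6988 CPM. Ecm1, an extracellular protein that keeps TGF-beta latent, was at 4488 CPM (interval 4449 to 4526) against 11216 CPM. Per 10000 UMIs, Ecm1 ran from 3.19 to 187 with a median of 42.3 in collagen-high cells and from 0.618 to 302 with a median of 109 in low-score cells, and 17 of 539 collagen-high cells lay above the low-score median. Angptl6, Vipr1 and Ngfr, a secreted factor, the VIP receptor and the low-affinity neurotrophin receptor, were 3.45-fold, 2.65-fold and 2.49-fold lower. The growth factor Hgf was at 571 against 907 CPM, less than 2-fold lower. The higher gene was Rdh10, which oxidises retinol on the way to retinoic acid, at 61.2 against 23.9 CPM.

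Immediate-early and heat-shock genes, which respond to tissue digestion as well as to signals in the animal, were lower. Of 18 considered, none was 2-fold higher and 5 were 2-fold lower, with a median log2 ratio of -0.81, and all 18 had an interval below a ratio of 1. The heat-shock genes Dnajb1, Hspa1b and Hspa1a stood at 395 against 1460 CPM, 1599 against 4172 CPM and 1926 against 4965 CPM. Btg2 and Ier2 were 2.63-fold and 2.02-fold lower, Ier2 under 2-fold in 10 of 23 alternatives, and Fos and Jun were at 3026 against 4605 CPM and 3382 against 6511 CPM. The part of cell handling in these levels was not tested.

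Of 15 chemokines and cytokines, 7 were higher and none lower, with a median log2 ratio of 0.98, but few cells carried the largest ratios. The count was 12 with cells with Mgp or Dpt removed and 11 with the score without Col1a1 or with z-scored score genes. It was 5 with the score without Timp1, and 5 of 14 considered with cells thinned to 5000 UMIs. Cxcl9, an interferon-induced chemokine for T cells, stood at 182 against 9.35 CPM, was found in 70 of 539 cells, and had 70.8% of its UMIs in 10 cells. Ccl11, eotaxin, was at 52.1 against 3.61 CPM with 95.9% in 10 cells, and Cxcl5, a neutrophil chemokine, at 34.6 against 2.29 CPM with 59.3% in 10 cells. The monocyte chemokine Ccl7 was at 206 against 37.8 CPM, and its neighbour Ccl2 at 952 against 571 CPM, below 2-fold.

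Of the genes that the study examined as tumour promoters or in lipid mediator synthesis, 10 were considered, 8 of which were higher and none lower, with a median log2 ratio of 2.37. The study had already examined these genes, some of them in these libraries, so their direction here is not independent evidence. Cyp1b1, a cytochrome P450, stood at 25.2 CPM (interval 22.4 to 28.3) against 0.192 CPM, and was found in 145 of 539 cells (26.9%), in 9.46% after thinning against 0.0404% of low-score cells. The highest cell held 8 of its UMIs, so at this depth a cell without it may have been missed. Gas6, the ligand of AXL, was at 68.7 against 2.37 CPM, the EGF-family ligand Ereg at 75.04 against 11.8 CPM, the hyaluronan receptor Cd44 at 79.7 against 17.5 CPM and Ptgs2, cyclooxygenase 2, at 16.3 against 2.80 CPM. Vegfa was at 32.8 against 19.4 CPM. The stearoyl-CoA desaturases Scd1 and Scd2 were at 20.3 against 9.81 CPM and 74.8 against 58.5 CPM, the latter below 2-fold. Fbln2 (7.81 against 0.177 CPM) and Thy1 (0.944 against 0.237 CPM) were below the level needed to be counted.

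Among genes with at least 5 CPM over eligible cells, the highest ratios apart from the score genes were those of Col15a1, a basement membrane collagen (58.6 against 0.222 CPM), the adhesion molecule Ncam1 (35.6 against 0.192 CPM), Mfap4 and Cyp1b1. They were followed by Acta2, Dpt, the chemokine Ccl5 (60.6 against 1.06 CPM), Lox, the transcription factor Wt1 (22.4 against 0.503 CPM), the chemokine scavenger Ackr3 (32.9 against 0.947 CPM) and the kinase Dclk1 (81.6 against 2.44 CPM). Cd74, the MHC class II invariant chain, Ankrd1, a target of YAP in stretched cells, Gas6 and the membrane repair protein Myof completed the 15. Mfap4, Ccl5, Cd74 and Ankrd1 each had more than 60% of their UMIs in 10 collagen-high cells (63.1%, 68.7%, 61.3% and 62.4%). The lowest ratios belonged to the hepatocyte genes Serpina1a, Igfbp1, Alb, Apoa1, Serpina1b, Rbp4, Ahsg and Ttr, followed by the Notch ligand Dll4 (1.37 against 10.5 CPM) and the erythropoietin receptor Epor (13.995 against 101.1 CPM). For Alb, albumin, the levels were 1.97 and 104 CPM, but 10 low-score cells held 97.6% of its UMIs there, and for Igfbp1 and Apoa1 the share was 100% and 98.7%. The hepatocyte ratios therefore describe a few low-score cells: without cluster 13, a cluster of 6 cells led by Alb of which 3 were low-score cells, the log2 ratio was above 0 for Igfbp1, Apoa1, Rbp4, Ahsg and Ttr, Alb and Serpina1b were less than 2-fold lower, and Serpina1a was still more than 2-fold lower.

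Levels differed over the whole score range, not only at its end. From low-score cells through the cells at the 50 to 75 and 75 to 94 percentiles to the collagen-high cells, Col3a1 stood at 541, 792, 1439 and 4383 CPM and Acta2 at 8.93, 35.1, 133 and 762 CPM. Tagln stood at 347, 554, 943 and 2510 CPM and Cyp1b1 at 0.192, 2.10, 7.99 and 25.2 CPM over the same steps. In the other direction Colec10 stood at 2033, 1807, 1318 and 541 CPM and Hspa1a at 4965, 4402, 3548 and 1926 CPM, while Lrat was at 1595, 1571, 1513 and 1097 CPM. Median depth over these steps was 13042, 12590, 14342 and 19607 UMIs, and the part of depth in this order was not tested.

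**Figure D3:**
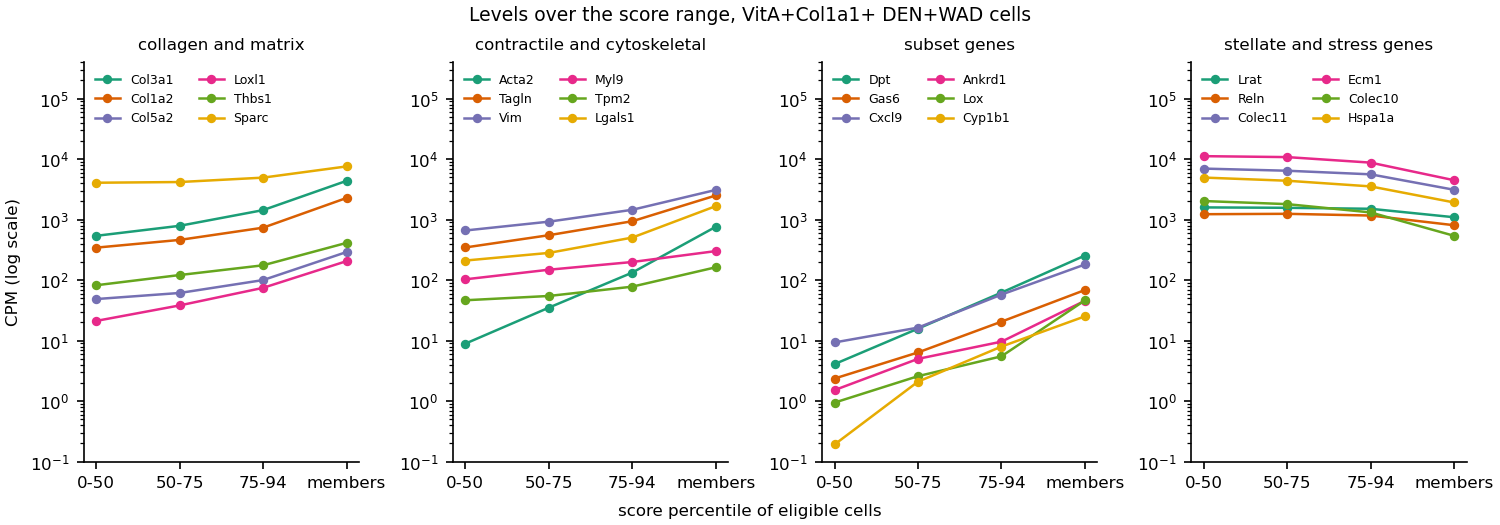
CPM (log scale) of 24 genes in low-score cells (0-50 percentile of score), the 50-75 and 75-94 percentiles and the collagen-high members, in 4 panels by gene group. Matrix, contractile and subset genes climb over all 4 steps, and stellate and heat-shock genes descend mainly at the last step.

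The 56 cells set aside for Mgp and Dpt held more collagen and fibroblast RNA than the collagen-high cells and less stellate RNA, with 6948 CPM of Col3a1, 5555 CPM of Col1a2, 1094 CPM of Dpt, 628 CPM of Gas6 and 485 CPM of Mfap4, 597 CPM of Lrat and 215 CPM of Colec10. Their Acta2 was 532 CPM, their Timp1 474 CPM and their Ccl7 95.2 CPM.

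The collagen-high cells were not of 1 kind. Clustering of the eligible cells gave 15 clusters, and 4 of them held 503 of the 539 cells (93.3%), while 6 clusters held none. The genes said to lead a cluster are those of all its eligible cells, collagen-high or not, and the CPM values are those of its collagen-high cells. Cluster 3, with 184 collagen-high cells, was led by Col3a1, Tmem119 and Dpt and held the most Lrat (1533 CPM) and Reln (1169 CPM) and the least Acta2 (71.3 CPM) of these clusters. Cluster 8, with 145, was led by Cxcl9, Cxcl5 and Ccl7 and held 1262 CPM of Timp1, 319 CPM of Tnc and 2278 CPM of Ccl2. Cxcl9 was found in 29 of these 145 cells. Cluster 9, with 124 collagen-high cells among 405, was led over the 405 cells by Mgp, Gas6 and Mfap4, which are fibroblast genes. Its collagen-high cells held the most Col1a1 (3246 CPM) and S100a6 (954 CPM) of these clusters. Cluster 2, with 50, was led by Acta2, Tgfb2 and Fbxl22 and held 2133 CPM of Acta2, 3891 CPM of Tagln and 175 CPM of Myh11, smooth muscle myosin, with 1.79 CPM of Cxcl9. The defining genes of a cluster are given as a description, since the same values made the clusters.

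Several genes with the highest ratios over low-score cells were higher in cluster 9 than in clusters 2, 3 and 8. There Wt1 stood at 76.6 CPM and was found in 56.5% of cells, against 1.79 to 8.31 CPM in clusters 2, 3 and 8. Gas6 stood at 249.4 against 7.21 to 29.6 CPM, Ncam1 at 108 against 0.896 to 12.1 CPM (161 CPM in the 9 cells of cluster 14), Col15a1 at 142 against 16.04 to 53.0 CPM and Cyp1b1 at 71.0 against 5.38 to 15.2 CPM. Without cluster 9 in either set, 299 genes were still at least 2-fold higher, 285 of them among the 330, and the log2 ratio was 6.13 for Cyp1b1 (7.04 with it), 3.81 for Wt1 (5.48), 2.75 for Gas6 (4.86) and 3.61 for Mfap4 (7.33). Among matrix genes Eln went from 2.38 to 1.26, and Mmp2 (1.30 to 0.826) and Ctgf (1.28 to 0.997) came under 2-fold, as Gsn went from 2.06 to 1.35. Of the matricellular genes, 5 of 17 were then higher. Col3a1 went from 3.02 to 2.86, Acta2 from 6.42 to 6.25, Col1a2 from 2.73 to 2.41 and Thbs1 from 2.33 to 2.25. Cycling cells formed the small cluster 14, where 9 of 29 cells were collagen-high, with 1076 CPM of Top2a and 532 CPM of Mki67 against at most 4.32 and 3.15 CPM in the 4 main clusters.

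**Figure D4:**
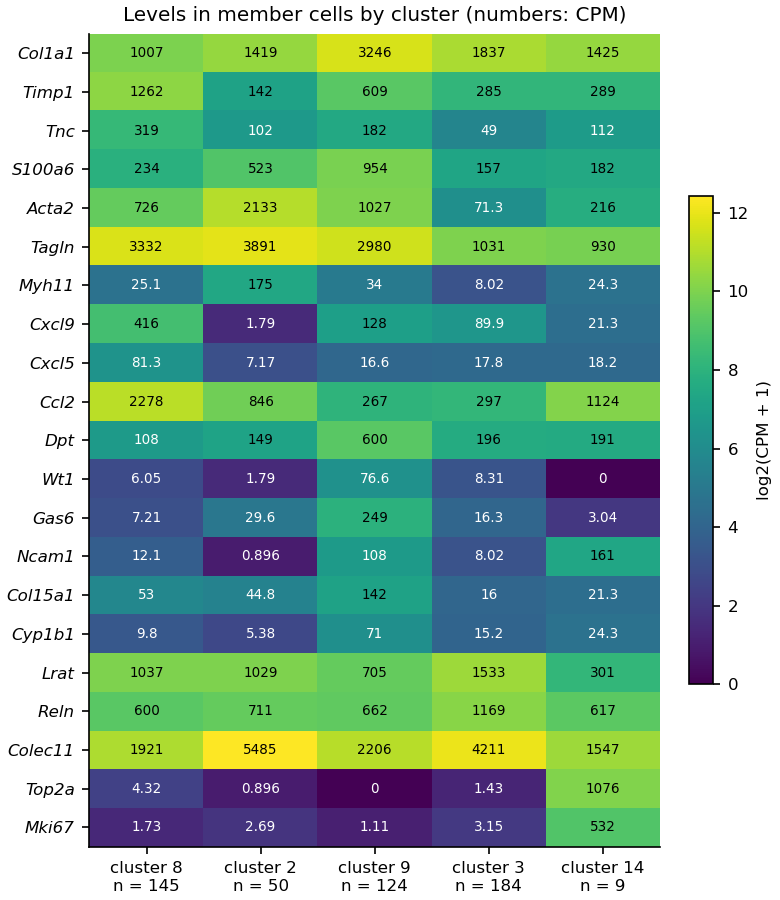
CPM of 21 genes in the collagen-high cells of 5 clusters (columns, n is the number of cells), coloured by log2(CPM + 1). Timp1 and Ccl2 are brightest in cluster 8, Acta2 and Myh11 in cluster 2, Gas6, Wt1 and Cyp1b1 in cluster 9, Lrat in cluster 3, and Top2a and Mki67 in cluster 14.

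The collagen-high cells were also split by Acta2 and by Dpt, pooled over clusters. Both genes differed by cluster. Acta2 was found in 76% of those in cluster 2 and 20.1% in cluster 3, and Dpt in 90.3% in cluster 9 and 40% in cluster 2. The 244 collagen-high cells with Acta2 had a log2 ratio over the 295 without it of 1.90 for Tagln, 3.08 for Myh11, 1.76 for S100a6 and -0.68 for Lrat, with a median of 23202 against 17753 UMIs. The 323 cells with Dpt, a collagen-fibril-binding protein called dermatopontin, had 1.16 for Col1a1, 3.38 for Ncam1, 3.02 for Gas6 and 2.18 for Cyp1b1 over the other cells, and -1.51 for Myh11 and -1.07 for Cxcl9, with 21247 against 18386 UMIs. The same ratio was 0.10 for Acta2 and -0.14 for Tagln. The part of the depth difference in these splits was not tested.

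The same absolute cut was reached by very different shares of cells in the other libraries. In VitA+Col1a1+ chow, 1 of 231 eligible cells reached a score of 10.94 (0.433%, exact Clopper-Pearson interval 0.0110% to 2.39%), against 595 of 9912 after DEN+WAD, 6% by the rule. In VitA-Col1a1+ cells, 632 of 1732 (36.5%) reached it in DEN+WAD and 412 of 462 (89.2%) in chow, and in the library labelled VitA-Col1a1- 2250 of 3281 (68.6%). Many of the VitA- cells held both Mgp and Dpt, and without them the shares were 17.5% (303 cells) after DEN+WAD, 27.3% (126 cells) on chow and 54.9% (1800 cells) in the library labelled VitA-Col1a1-. With 1 library per group, treatment cannot be told apart from the library, and the part of the sorting gate was not tested.

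Levels in the cells above the cut and without Mgp and Dpt together were set side by side. The cut fixed the sum of the 4 score genes and Lrat was required, so their levels are partly set by the rule. Col1a1 was at 1833 CPM in the collagen-high VitA+ cells, 1599 CPM in VitA- cells of DEN+WAD, 1471 CPM in VitA- cells of chow and 2195 CPM in the library labelled VitA-Col1a1-. Timp1 was at 635 CPM in the VitA+ cells and at 156, 10.2 and 143 CPM in the other 3, in the same order. S100a6 went the other way, at 417 CPM against 1805, 3268 and 1383 CPM, and so did Acta2, at 762 CPM against 2272, 2637 and 2303 CPM. Lrat was at 1097 CPM against 544, 574 and 781 CPM, and Reln at 810 CPM against 454, 105 and 405 CPM. Cxcl9 was at 182 CPM against 9.54 CPM for VitA-Col1a1+ DEN+WAD, 0 UMIs in VitA-Col1a1+ chow and 43.9 CPM in the library labelled VitA-Col1a1-. Of the genes outside the rule, Reln and Cxcl9 were among those highest and Acta2 among those lowest in the collagen-high VitA+ cells. Of their Cxcl9 UMIs, 70.8% were in 10 cells. Ecm1 was also highest in them, at 4488 CPM against 2640.5, 942 and 1102 CPM. Tagln was also lowest, at 2510 CPM against 3621, 3876 and 3588 CPM, as was Gas6, at 68.7 CPM against 350, 720 and 147 CPM.

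When the top 6% was taken within each library instead, the collagen group moved the same way in all 5. Of 14 to 18 collagens considered in each of the other libraries, 6 to 14 were at least 2-fold higher with an interval above a ratio of 1 and none was lower. The log2 ratio of Col3a1 was 3.02 here, 2.90 for VitA-Col1a1+ DEN+WAD, 1.54 in VitA+Col1a1+ chow, 1.64 in VitA-Col1a1+ chow and 2.03 in the library labelled VitA-Col1a1-. Acta2 gave 6.42, 6.43, 5.67, 3.17 and 1.79 in the same order, and Hspa1a -1.37, -1.63, -0.80, -0.68 and -0.92. Cyp1b1 did not: it gave 7.04 here, 0.35 for VitA-Col1a1+ DEN+WAD and -0.08 in the library labelled VitA-Col1a1-, and it had 0 UMIs in the 231 eligible VitA+Col1a1+ chow cells. Its level was not particular to the collagen-high cells. Cells above the absolute cut and without Mgp and Dpt together held 25.2 CPM here. They held 51.8 CPM in VitA-Col1a1+ DEN+WAD, 17.4 CPM in VitA-Col1a1+ chow and 32.3 CPM in the library labelled VitA-Col1a1-. Over all eligible cells Cyp1b1 stood at 5.15 CPM here and at 44.4, 69.2 and 41.4 CPM in those libraries, in the same order.

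Of the 326 genes higher in collagen-high cells apart from the score genes, 188 of the 319 considered in VitA-Col1a1+ DEN+WAD were higher there too (58.9%), where 7.75% of all genes were. The count was 77 of 264 in VitA+Col1a1+ chow (29.2%, with 2.73% of all genes), 79 of 309 in VitA-Col1a1+ chow (25.6%, with 5.12%) and 118 of 326 in the library labelled VitA-Col1a1- (36.2%, with 3.46%). The reverse direction was held by 11, 1, 51 and 12 of them, where 6.63%, 1.63%, 5.73% and 5.44% of all genes were lower. Without cells with both Mgp and Dpt in the low-score set, as in the high-score set, VitA-Col1a1+ chow gave 92 higher (29.8%) and 22 in the reverse direction. Of all genes there, 4.91% were then higher and 4.37% lower. Of the 184 lower genes, 110 of 154 were lower in VitA-Col1a1+ DEN+WAD (71.4%, with 6.63% of all genes), 27 of 170 in VitA+Col1a1+ chow (15.9%, with 1.63%), 27 of 112 in VitA-Col1a1+ chow (24.1%, with 5.73%) and 91 of 136 in the library labelled VitA-Col1a1- (66.9%, with 5.44%). The sets were small outside the main library, with 57, 14, 17 and 134 cells, and the cut differed between libraries, so that their counting intervals were wider.

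**Figure D5:**
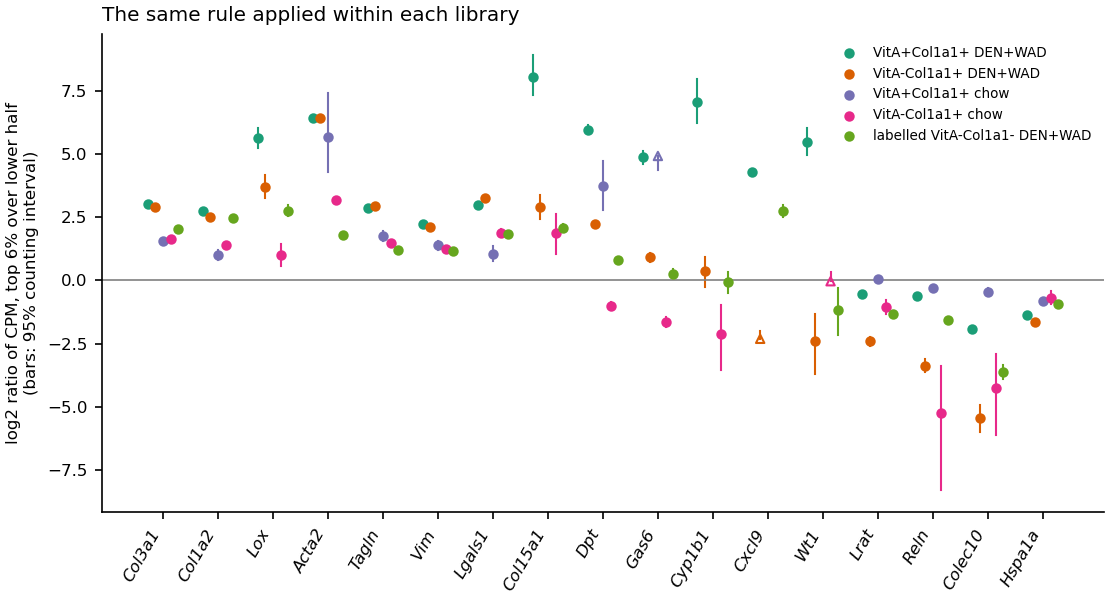
Log2 ratio of CPM, top 6% of score over low-score cells, for 17 genes (x axis) with the same rule applied within each of 5 libraries (colours). Bars are 95% counting intervals, and open triangles are bounds where 1 of the 2 sets had 0 UMIs. Col3a1, Col1a2, Acta2, Tagln, Vim and Lgals1 lie above 0 in each library, and Dpt, Gas6, Cyp1b1 and Wt1 lie well above 0 in VitA+Col1a1+ DEN+WAD. Of these, Dpt, Gas6 and Cyp1b1 fall below 0 in VitA-Col1a1+ chow, where Wt1 is only a bound near 0. For Wt1 the library labelled VitA-Col1a1- gives -1.16, and VitA-Col1a1+ DEN+WAD gives -2.40.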

How the data were processed

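Single-cell RNA was sequenced from 5 sorted libraries, 1 per group. The authors deposited each as a matrix of UMI counts per gene and cell, made with Cell Ranger against mm10: per the labels version 3.1.0 for the 4 Col1a1+ libraries, and per the file headers version 6.1.2 for the library labelled VitA-Col1a1-. The labels name different kit versions for the libraries.

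Cells were chosen as the report states. UMIs were summed over cells and scaled to CPM with exact Poisson intervals, ratios have conditional binomial intervals and shares exact Clopper-Pearson intervals. Genes with at least 5 CPM over eligible cells were considered, and a set at 0 UMIs was given a floor of 3 UMIs. With 1 library per group no test was possible and none was run. Shares were compared after thinning to 5000 UMIs. Clusters used 2000 variable genes, 30 principal components, 15 neighbours and Leiden resolution 1. Scrublet marked 1 cell and so had not worked, no doublets were removed, and an alternative without the top 8% of doublet scores was added after seeing the data. The calculations were tested on simulated data. Clustering ran in scanpy 1.11.5 with igraph 0.11.9 and anndata 0.12.19, and the remaining steps in Python 3.11.15 with pandas 2.3.3, scipy 1.17.1, numpy 2.4.6 and matplotlib 3.10.9, with gene positions from GENCODE M21 (GRCm38), which held 31011 of 31053 identifiers.

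The cells and the gene lists were chosen with earlier results of these data known. Named genes were the 4 score genes and Lrat, the 15 highest and 10 lowest ratios (without mitochondrial and ribosomal genes and unnamed models), genes of the lists, genes the study examined and leading genes of clusters.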

Additional observations from a re-analysis of the deposited data

Results flagged for a closer look

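With the top 6% of scores compared with low-score cells inside each library, 22 ratios, among the genes named or on a list, were at least 2-fold in the opposite direction to that in VitA+Col1a1+ DEN+WAD. Each library is 1 sample, and the differences were not tested. All values are log2 ratios. For VitA-Col1a1+ DEN+WAD they were -2.40 for Wt1, -1.0 for Adamtsl2 and -2.31 for Cxcl9, the last with 0 UMIs in the high-score cells and so set by the floor of 3 UMIs. Without the 108 low-score cells of that library with both Mgp and Dpt they were -2.02, -0.857 and -2.49, so that Adamtsl2 was then under 2-fold. In VitA+Col1a1+ chow the cytokine Il33 gave -1.38.

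Most of them, 14, were in VitA-Col1a1+ chow. Fibroblast-linked genes gave -1.65 for Gas6, -1.65 for Gsn, -1.02 for Dpt, -1.16 for Mfap4 and -2.11 for Cyp1b1. Matrix genes gave -1.13 for Loxl1, -1.33 for Thbs2, -3.34 for Ctgf and -3.50 for Adamtsl2. Ackr3 gave -1.33 and Ccl7 -1.37, and Ncam1 (-3.03) and Ptgs2 (-2.41) had 0 UMIs in the high-score cells. Rgs5, a pericyte gene, gave 1.91. The low-score cells of that library included 165 cells with both Mgp and Dpt, while such cells had been set aside from the high-score cells. Without them 66 low-score cells remained, and the ratios were 0.03 for Gas6, 0.07 for Dpt, -0.03 for Gsn, 0.47 for Mfap4, -0.21 for Cyp1b1, 0.12 for Rgs5, 0.23 for Loxl1, -0.16 for Thbs2 and 0.11 for Ackr3. They were still -2.30 for Ctgf, -2.36 for Adamtsl2 and -1.02 for Ccl7. With 0 UMIs in the high-score cells, the values of 0.20 for Ptgs2 and -2.80 for Ncam1 were set by the floor of 3 UMIs, and no direction is read from that of Ptgs2.

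In the library labelled VitA-Col1a1- the ratios were -1.22 for Ccl5, -1.16 for Wt1, -1.85 for Cxcl2 and -1.55 for Scd1. Without its 102 low-score cells with both Mgp and Dpt they were -1.28, -0.92, -1.92 and -1.61, so that Wt1 was then under 2-fold.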

How the results depend on the processing

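No paired analysis was possible because each group held 1 library. Taking the top 3% of scores gave 256 cells and 299 lower genes, and the top 10% gave 926 cells and 111 lower genes. Removing cells with Mgp or Dpt, not both, left 215 cells. A minimum of 1 CPM gave 696 higher and 337 lower genes, and 20 CPM gave 143 and 102. Without thinning, the shares of collagen-high cells were 45.3% for Acta2, 59.9% for Dpt, 100% for Col3a1 and 100% for Lrat, against 36.7%, 42.3%, 99.1% and 94.4% thinned. Over 143 genes and 23 alternatives, 1901 of 3287 log2 ratios stayed within their counting interval, and 31 of 101 genes past 2-fold came under it in at least 1 alternative. The 29 changes of direction were in hepatocyte genes, Spp1 and Mki67. With at least 3 Lrat UMIs, Igfbp1 was 0.54, Apoa1 0.37, Rbp4 1.35, Ahsg 3.02, Ttr 0.0507 and Spp1 0.32. With the score without Col1a1, Igfbp1 was 0.966, Alb 0.816, Apoa1 0.755, Rbp4 1.26, Ahsg 2.84, Ttr 0.948 and Spp1 1.88. With cells thinned to 5000 UMIs, Serpina1a was 1.56, Serpina1b 0.686, Rbp4 2.15 and Ahsg 2.80. With split UMIs, Igfbp1 was 0.493, Serpina1b 0.171, Rbp4 1.36 and Ahsg 3.05. Without cluster 13 (6 cells), Igfbp1 was 0.535, Apoa1 0.535, Rbp4 1.25, Ahsg 3.07, Ttr 0.757 and Spp1 1.59. Mki67 was -1.14 with cells with Mgp or Dpt removed and -0.761 without cluster 14. The causes were not tested. The alternatives that leave out a cluster and the unthinned shares were chosen after seeing the data.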

Other observations

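Genes on none of the lists, chosen after their values were seen, also differed between collagen-high and low-score cells. The homeobox factor Prrx1 stood at 47.5 against 5.29 CPM, the collagen-gene activator Creb3l1 at 208 against 41.8 CPM and the carboxypeptidase-like Aebp1 at 201 against 37.6 CPM. The secreted factors Igf1 and Wnt5a stood at 50.0 against 5.49 CPM and 14.9 against 3.16 CPM. Tmem119 stood at 89.2 against 7.31 CPM and the adhesion molecule Alcam at 179 against 30.7 CPM.

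Other such genes were lower in collagen-high cells. The glucagon receptor Gcgr stood at 9.27 against 61.1 CPM, the Hedgehog inhibitor Hhip at 47.8 against 223 CPM, and Ramp1 and Calcrl, which pair as the CGRP receptor, at 404 against 1312 CPM and 183 against 478 CPM. Bmp10 stood at 58.6 against 137 CPM, and Id1, a target of BMP signalling, at 160 against 453 CPM.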
